A study of Mus musculus with 6 samples.

Results

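Mouse retinal Müller glia cultures that had received a let-7 antagomiR together with a miR-25 mimic were compared, cell by cell, with cultures that had received a control mimic and a control antagomiR. Müller glia are the radial glial cells of the retina. A miRNA mimic is a synthetic double-stranded RNA that supplies extra miRNA, and an antagomiR is a complementary RNA that blocks one. The members are all cells of these 2 single-cell libraries that passed the filters: 2721 cells of the combined treatment and 4516 control cells, 7237 of the 23021 kept cells in the 6 libraries of the series. A cell was kept with at least 500 detected genes and at most 10% of its UMIs (unique molecular identifiers, each standing for 1 captured RNA molecule) from mitochondrial genes. Retinas were dissociated with papain, per the labels' protocols, and grown in neurobasal medium with fetal bovine serum, N2 supplement, L-glutamine and epidermal growth factor. Both groups share this culture and the transfection with a Lipofectamine reagent, each RNA at 500 nM. The labels give neither the number of animals behind a library nor the arm of the miR-25 mimic. A let-7 antagomiR library (3060 cells) and a miR-25 mimic library (5158 cells) serve as side values, and both are read against the same control library. With 1 library on each side, nothing below could be checked against replicates, and no treatment was tested. The 95% intervals beside values are exact (Poisson for a level, conditional for a ratio, Clopper-Pearson for a share) and cover the counting error alone.

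The count matrix of the combined treatment ends early. It held 5093248 of the 8637523 entries its size line gives, so 3014 of its 5141 barcodes were used, in barcode-list order. The used part held 11804176 UMIs against 23124374 in the control. Kept cells had a median of 3775 UMIs in the combined library and 4479 in the control, with median mitochondrial shares of 5.13% and 4.23%. The 2 libraries shared 21 cell barcodes. Scrublet called 1.38% of combined cells doublets, and 0.111% of control cells, so few that control doublets cannot be taken as removed.

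MicroRNAs lower the stability and translation of mRNAs whose 3′ untranslated region (UTR) pairs with the miRNA seed, the bases near its 5′ end. The let-7 family is abundant in mature, non-dividing cells, and Lin28 proteins block its maturation in progenitors. miR-25 belongs to a seed family that is encoded partly within the Mcm7 gene and is abundant in dividing progenitors. Müller glia recycle glutamate, buffer potassium and water, and carry retinoids. In fish they can return to a progenitor state and make neurons, which mammalian Müller glia rarely do. The series asks how these RNAs alter the fate of the cultured glia.

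The sequences behind the comparison are the seeds and the UTR letters that pair with them. The mature miRNAs below come from RefSeq's miRNA records (GRCm38.p6), 5′ to 3′, with seed bases 2 to 8 in capitals. The 3p arm of miR-25 was assumed. The first 4 share the miR-25 seed and the last 4 the let-7 seed.
mmu-miR-25-3p: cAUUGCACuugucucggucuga
mmu-miR-92a-3p: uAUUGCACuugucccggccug
mmu-miR-92b-3p: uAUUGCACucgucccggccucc
mmu-miR-32-5p: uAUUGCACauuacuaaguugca
mmu-let-7a-5p: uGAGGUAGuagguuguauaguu
mmu-let-7b-5p: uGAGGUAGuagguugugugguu
mmu-let-7i-5p: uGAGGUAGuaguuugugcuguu
mmu-miR-98-5p: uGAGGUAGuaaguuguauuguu

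Sites were searched on the transcript strand of the longest annotated 3′ UTR of each gene (GENCODE vM21, build mm10, which is GRCm38). A miR-25 site was GTGCAAT or TGCAATA, both within the 8-mer GTGCAATA. A let-7 site was CTACCTC or TACCTCA, both within the 8-mer CTACCTCA. Of 20961 UTRs, 12.7% held a miR-25 site and 14.8% a let-7 site, and 2.28% and 3.03% held the 8-mer. A match describes letters only. The following 22-base UTR windows end in the matched letters, in capitals, and belong to genes whose values are given further on. The first 6 hold the miR-25 8-mer.
Dkk3, chr7:112118174-112118195, minus strand: agtcactggtagatGTGCAATA
Adam23, chr1:63592951-63592972, plus strand: gggagtagcaacaaGTGCAATA
Ephb2, chr4:136648065-136648086, minus strand: actccacaagagccGTGCAATA
Mia3, chr1:183327101-183327122, minus strand: tcaaactttgaaatGTGCAATA
Cadm2, chr16:66658867-66658888, minus strand: ttgaaatatactcaGTGCAATA
Limch1, chr5:67054591-67054612, plus strand: ggaagagcagaaggGTGCAATA
The next 6 hold a let-7 match, the 8-mer in Thrsp, Igf2bp2 and Hmga2 and a 7-mer in Acta1, Gpx7 and Col9a3.
Acta1, chr8:123891850-123891871, minus strand: tagattgactcgtttTACCTCA
Thrsp, chr7:97413173-97413194, minus strand: cagggatgctgtatCTACCTCA
Igf2bp2, chr16:22059473-22059494, minus strand: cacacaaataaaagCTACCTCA
Hmga2, chr10:120364224-120364245, minus strand: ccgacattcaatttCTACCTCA
Gpx7, chr4:108400549-108400570, minus strand: acccatgccaagtctTACCTCA
Col9a3, chr2:180621612-180621633, plus strand: tttatggcagcccaaTACCTCA

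The libraries are labelled Müller glia, and markers placed most control cells in another class. Cells of all 6 libraries were clustered together, and clusters were named only from marker lists. Mesenchymal-like cells, defined by collagen genes, made up 46.7% of the control (2109 cells, 45.2% to 48.2%) and 26.9% of the combined library (731 cells, 25.2% to 28.6%). Müller-like cells made up 29.5% of the control (1331 cells, 28.1% to 30.8%) and 50.5% of the combined library (1375 cells, 48.6% to 52.4%). The largest class thus differed between the libraries. The single-RNA libraries held 50.4% (let-7 antagomiR) and 58.3% (miR-25 mimic) Müller-like cells.

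Pericyte-like cells, the contractile cells of small vessels, made up 8.70% of the control (7.90% to 9.56%) and 7.02% of the combined library (6.09% to 8.05%). Astrocyte-like cells were 6.11% and 7.203%, with overlapping intervals. Microglia-like cells, the resident macrophages, were 2.72% and 2.57%, and their intervals overlapped too. Cells of the neuron- or progenitor-like class were 0.664% of the control (30 cells, 0.449% to 0.947%) and 3.34% of the combined library (91 cells, 2.70% to 4.09%). They made up 3.79% of the let-7 antagomiR library and 3.99% of the miR-25 mimic library, but this order depended on the clustering. At resolution 0.3 the shares were 0.0221% of control cells, 0.523% and 0.504% in the let-7 antagomiR and miR-25 mimic libraries and 1.84% in the combined library, and at resolution 1.0 they were 0.111%, 1.47%, 2.06% and 2.79%. Among these libraries the combined one was highest at both, and the control lowest at all 3 resolutions. At resolution 1.0 the miR-124 mimic library, not compared here, held 5.45%, and the library with miR-124 mimic added to both RNAs 1.30%. With 1 library a treatment, differences between libraries and between treatments cannot be told apart in these shares.

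**Figure D1:**
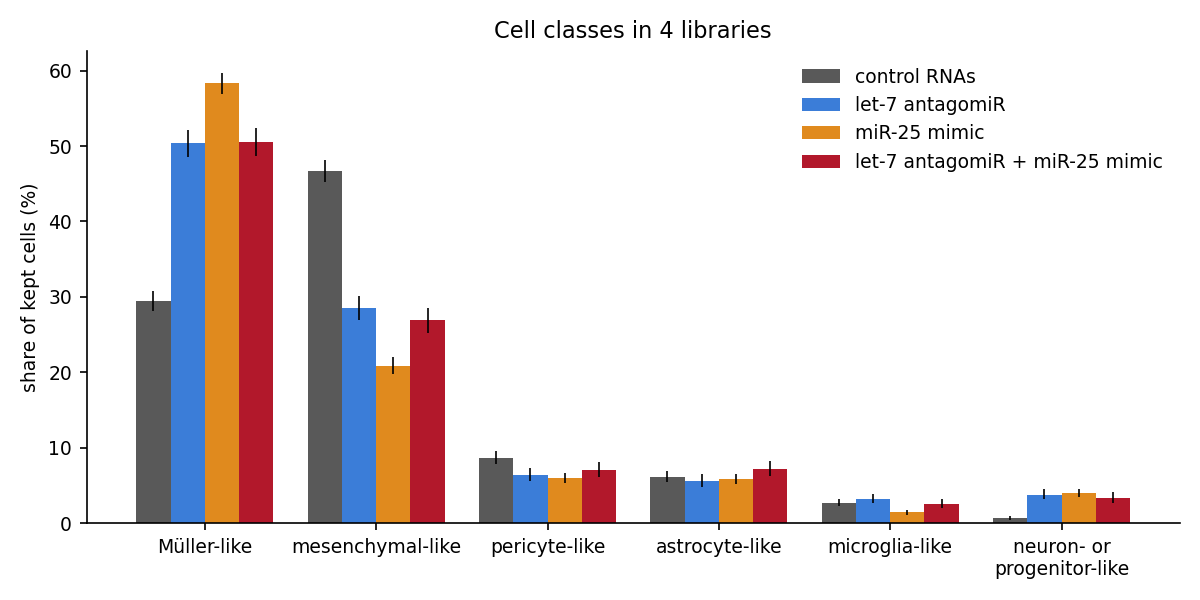
Share of kept cells (percent, 0 upward) in each cell class for 4 libraries (control, each RNA alone, and both combined), with exact 95% binomial intervals as bars. The control holds 46.7% mesenchymal-like and 29.5% Müller-like cells, and the combined library 26.9% and 50.5%.

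Few cells in either library carried several proliferation transcripts. Cells with UMIs from at least 3 of 10 cell cycle genes made up 0.819% of the control (37 cells) and 1.07% of the combined library (29 cells). Among Müller-like cells there were 0 of 1331 in the control, which allows a share of up to 0.277%, and 2 of 1375 in the combined library. Among the named classes, microglia-like cells held the highest share, 13.01% in the control (7.62% to 20.3%) and 27.1% in the combined library (17.2% to 39.1%). The clustering also set apart an unnamed cluster whose leading genes include Cenpf, Ube2c, Top2a and Mki67. It held 18 control and 7 combined cells, which count in no named class. In this cluster 8 mesenchymal, 4 pericyte and 0 Müller glia markers were at least 2-fold above the median cluster. The numbers given by class leave its cells out.

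The Müller-like cells were compared through their summed UMIs, 5424403 in the control and 5631274 in the combined library. Median depth was nearly equal, 3913 and 3907 UMIs a cell. All 28 genes of the Müller glia list were detected in both, with summed levels of 19070 CPM (a gene's UMI count rescaled so that all genes of the library sum to the same total) in the control and 16120 CPM in the combined library. That sum alone does not set the class apart. In control cells it was 17030 CPM in the neuron- or progenitor-like, 14400 CPM in the microglia-like and 10440 CPM in the astrocyte-like class. It was 4366 CPM in pericyte-like and 2862 CPM in mesenchymal-like control cells. Photoreceptor markers in Müller-like cells summed to only 1.84 and 2.66 CPM. Mesenchymal markers summed to 219 and 215 CPM, and microglia markers to 46.6 and 33.0 CPM. Pericyte markers, which include contractile genes, summed to 4303 CPM in the control and 6177 CPM in the combined library.

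Different clusters held most Müller-like cells in the 2 libraries. A cluster led by Lcn2, Gpr37 and Chil1 held 929 of the control and 541 of the combined Müller-like cells. Another, led by Npvf, Akr1c18 and Grem1, held 396 and 830. Many of the main genes and gene lists are therefore also given within the Lcn2-led and the Npvf-led cluster, in that order. There the cell numbers of the 2 clusters no longer weigh on the ratio. R3hdml, Akr1c18, Crym and A2m are themselves among the genes that mark these clusters. Of the Müller glia markers, 11 were at least 2-fold above the median cluster in the Lcn2-led and 5 in the Npvf-led cluster. The neuron- or progenitor-like cluster had 6 such markers. A Müller-like cluster led by Rlbp1, Gfap and Cspg5 had 22, but held only 6 control and 4 combined cells.

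Among the 7112 genes that reached 20 CPM in at least 1 of the 6 libraries, 50 (0.703%) were at least 2-fold higher in combined Müller-like cells and 53 (0.745%) at least 2-fold lower, on the log2(CPM + 5) scale. At 1.5-fold the counts were 225 (3.16%) and 351 (4.94%). All 50 higher genes had the same sign in both clusters, and 30 were at least 2-fold higher within the Lcn2-led and 34 within the Npvf-led cluster. Of the 53 lower genes, 28 and 26 were at least 2-fold lower within those clusters, and 3 had the opposite sign in the Npvf-led cluster. These 3 are C3, Steap4 and Cdkn1c. Both sets of genes were picked on the sum over nearly the same cells. A shared sign within the clusters is therefore largely set by that choice and gives no separate support.

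The highest ratio belonged to Acta1, skeletal muscle α-actin (chr8:123891769-123894751). It stood at 7.93 CPM in control Müller-like cells (5.74 to 10.7), 15.4 CPM with let-7 antagomiR, 7.83 CPM with miR-25 mimic and 101 CPM in the combined library (92.7 to 110). The combined library alone was high, at a ratio to control of 12.7 (9.32 to 17.8). Within the Lcn2-led cluster the log2 ratio was 3.75, and within the Npvf-led cluster 2.74. Pericyte-like cells had less Acta1, 4.19 CPM in the control and 23.3 CPM in the combined library.

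Several of the named genes with high ratios encode secreted proteins. Htra3, a secreted serine protease, had 3.32 CPM in the control, 12.04 CPM with let-7 antagomiR, 10.6 CPM with miR-25 mimic and 40.3 CPM in the combined library, a ratio of 12.2 (7.51 to 20.9). R3hdml, a putative secreted protease inhibitor, had 18.6, 54.6, 75.7 and 172 CPM in the same order, with log2 ratios of 2.36 and 2.58 within the clusters. Both genes were higher in each single-RNA library than in the control and highest in the combined one. Ptn encodes pleiotrophin, a heparin-binding growth factor of neural tissue. It stood at 12.9, 15.1, 39.6 and 74.8 CPM, a ratio of 5.79 (4.49 to 7.57), with log2 ratios of 2.99 and 1.58 within the clusters. With let-7 antagomiR alone it was close to the control. In astrocyte-like cells, where Ptn is more abundant, it went the other way, 306 CPM in the control and 210 CPM in the combined library.

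Ccl2, the monocyte chemoattractant, had 27.8 CPM in the control, 30.9 CPM with let-7 antagomiR, 81.8 CPM with miR-25 mimic and 108 CPM in the combined library, a ratio of 3.88 (3.24 to 4.67), with log2 ratios of 0.74 and 2.78 within the clusters. Spp1, the secreted phosphoprotein osteopontin, had 31.7, 68.1, 27.5 and 96.3 CPM. Here the let-7 antagomiR library, not the miR-25 one, stood with the combined library. The Spp1 log2 ratio was 0.19 within the Lcn2-led and 1.10 within the Npvf-led cluster, so it was not 2-fold higher in the former. Thbs1, the matrix protein thrombospondin, had 79.3, 116, 81.2 and 218 CPM, and 1.11 in each cluster on the log2 scale. Thbs1 was near the control with miR-25 mimic alone.

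Further high ratios belonged to genes of metabolism, membranes and transcription. Akr1c18, a steroid dehydrogenase that inactivates progesterone, stood at 99.5 CPM in the control, 166 CPM with let-7 antagomiR, 216 CPM with miR-25 mimic and 385 CPM in the combined library, with log2 ratios of 1.38 and 1.40 within the clusters. Tsc22d1, a transcription regulator of the leucine zipper class, stood at 216, 381, 296 and 682 CPM, a ratio of 3.16 (2.96 to 3.38), with 1.36 and 1.65 within the clusters. For both genes the 4 libraries had one order at the ends: control lowest, combined highest. Pacsin1, which shapes membranes during endocytosis, had 6.82, 15.9, 20.5 and 51.1 CPM. AI593442 had 19.0, 67.8, 12.4 and 136 CPM, low with miR-25 mimic alone. Cst3, the cysteine protease inhibitor cystatin C, was the most abundant of the genes so named, with 5410, 6545, 8191 and 11580 CPM.

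**Figure D2:**
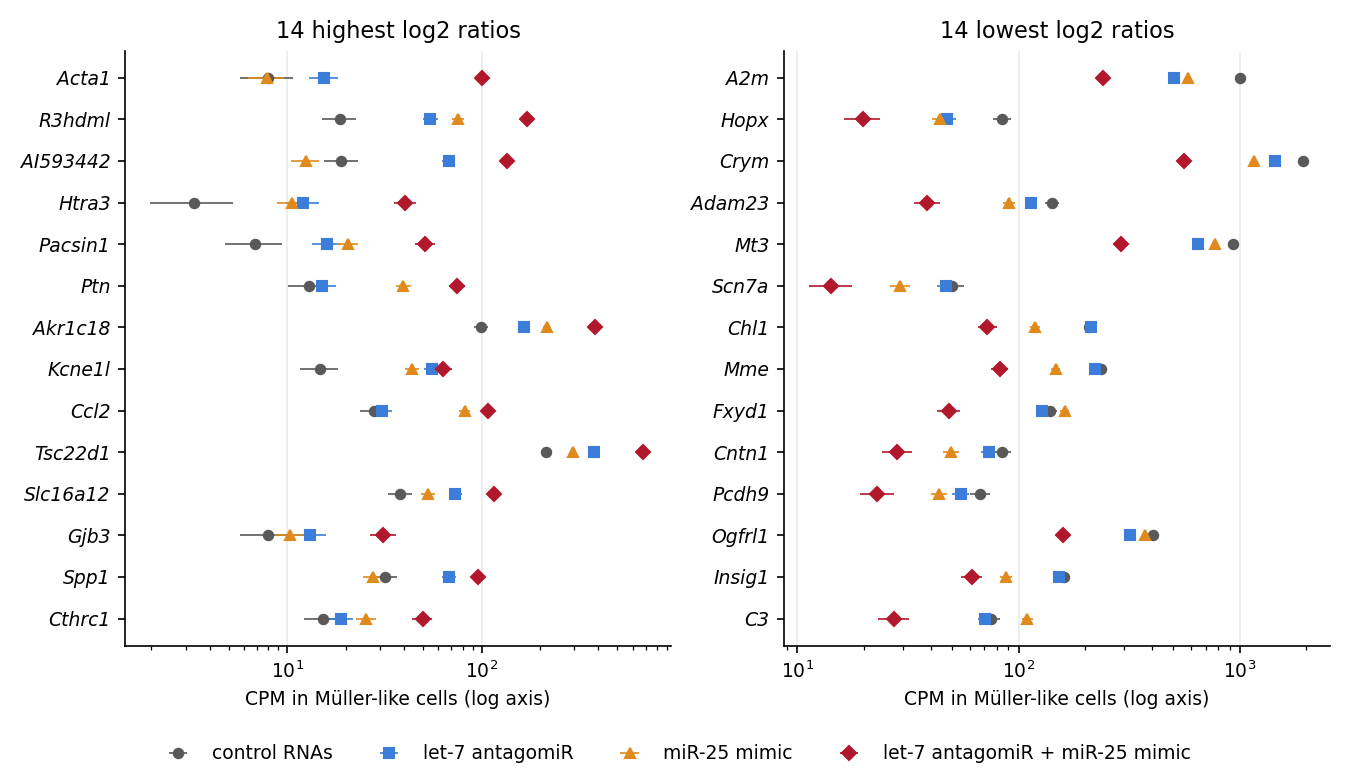
Level in Müller-like cells (CPM, log axis) of the 14 genes with the highest and 14 with the lowest ratios in 4 libraries (control, each RNA alone, and both combined), with exact 95% Poisson intervals. Acta1 stands at 101 CPM in the combined library against 7.83 to 15.4 CPM in the other 3, and A2m at 240 CPM against 505 to 998 CPM.

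The lowest ratio belonged to A2m, the protease inhibitor α2-macroglobulin (chr6:121635376-121679227). It stood at 998 CPM in the control (972 to 1025), 505 CPM with let-7 antagomiR, 585 CPM with miR-25 mimic and 240 CPM in the combined library (227 to 253). Its ratio to control was 0.240 (0.226 to 0.255), with log2 ratios of -2.11 within the Lcn2-led and -1.62 within the Npvf-led cluster. Crym, a thyroid hormone and NADPH binding crystallin of Müller glia, stood at 1931, 1437, 1162 and 557 CPM, a ratio of 0.288 (0.277 to 0.3002). Both genes were lowest in the combined library and intermediate in both single-RNA libraries. Crym stayed low within the clusters, at -1.56 and -2.02.

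Hopx, an atypical homeodomain protein without DNA binding, had 84.2 CPM in the control, 47.3 CPM with let-7 antagomiR, 44.2 CPM with miR-25 mimic and 19.7 CPM in the combined library. Its log2 ratio was -1.85 over all Müller-like cells, -1.55 within the Lcn2-led and -0.55 within the Npvf-led cluster. Scn7a, a sodium-sensing channel, had 50.1, 47.0, 29.2 and 14.2 CPM. Its ratios within the clusters were -1.79 and -0.62, so both genes were lower by less in the Npvf-led cluster; that difference was not tested. Mme, the membrane metalloprotease neprilysin, stood at 236, 222, 148 and 82.0 CPM, a ratio of 0.348 (0.312 to 0.387), with -1.57 and -1.65 within the clusters.

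All 3 measured metallothioneins, the cysteine-rich proteins that bind zinc and copper, were at least 1.5-fold lower in the combined library. Mt3, the form of neural tissue, stood at 928 CPM in the control, 650 CPM with let-7 antagomiR, 775 CPM with miR-25 mimic and 290 CPM in the combined library. Mt1 stood at 10910, 9277, 9934 and 5242 CPM, and Mt2 at 6736, 5880, 6457 and 3637 CPM. The single-RNA libraries stayed much nearer to the control than the combined library did. The list median of -0.89 was -0.80 and -0.65 within the clusters. The other measured members of that list, the zinc exporter Slc30a1 and the metal-sensing factor Mtf1, had log2 ratios of 0.01 and 0.02. Mt1 was also lower in combined mesenchymal-like cells (609 and 325 CPM), pericyte-like cells (1022 and 319 CPM) and astrocyte-like cells (2952 and 1125 CPM).

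Reactive gliosis genes, which glia raise after injury or in culture, were more often low than high. Of 18 measured, 8 were at least 1.5-fold lower and 1 higher, with a median log2 ratio of -0.51 against -0.02 over all genes. The medians were -0.47 within the Lcn2-led and -0.02 within the Npvf-led cluster, so the low median was seen in the former. A2m, C3 and Steap4 were lowest. C3, the central complement component, stood at 75.0 CPM in the control, 70.7 CPM with let-7 antagomiR, 110 CPM with miR-25 mimic and 27.4 CPM in the combined library, but its log2 ratio within the Npvf-led cluster was 0.61. Lcn2, an iron-carrier protein of acute inflammation, stood at 713, 472, 1322 and 426 CPM, with -0.40 within the Lcn2-led and 2.44 within the Npvf-led cluster. The intermediate filament genes Gfap and Vim had log2 ratios of -0.46 and 0.02.

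Genes of Müller glia identity and homeostasis had low medians as well. Of 28 Müller glia markers measured, 8 were at least 1.5-fold lower and 1 higher, with a median of -0.31. That median was -0.26 within the Lcn2-led and 0.03 within the Npvf-led cluster. Rlbp1, which carries retinaldehyde, stood at 89.2 CPM in the control, 78.6 CPM with let-7 antagomiR, 108 CPM with miR-25 mimic and 52.0 CPM in the combined library. Mlc1, a glial membrane protein of water balance, stood at 121, 91.3, 139 and 58.6 CPM. Glul, glutamine synthetase, had a log2 ratio of 0.28, so the members did not move as one. Car2, a carbonic anhydrase, was the marker above 1.5-fold, with 342, 288, 394 and 617 CPM.

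Handling of transmitters and ions followed the same pattern of medians. Of 11 glutamate and GABA genes, 3 were at least 1.5-fold lower and 0 higher (median -0.46), the lowest being the GABA transporter Slc6a11, with 14.6 CPM in the control and 6.57 CPM in the combined library. Of 11 ion, water and pH genes, 4 were lower and 1 higher (median -0.44). Within the Lcn2-led cluster these 2 medians were -0.38 and -0.49, and within the Npvf-led cluster they were near 0, at -0.07 and -0.08. Slc7a11, the cystine and glutamate exchanger, was the highest of the transmitter list, with 350 CPM in the control, 255 CPM with let-7 antagomiR, 475 CPM with miR-25 mimic and 528 CPM in the combined library. Of 7 retinoid genes 2 were lower and 0 higher, with a median of -0.45. It became 0.07 within the Lcn2-led cluster but stayed low within the Npvf-led one, at -0.36.

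Retinal and glial transcription factors were measured for 20 genes, of which 5 were at least 1.5-fold lower and 1, Tsc22d1, higher (median -0.35, and -0.23 and -0.14 within the clusters). Rax, an eye-field factor kept by Müller glia, stood at 29.5 CPM in the control, 33.4 CPM with let-7 antagomiR, 27.0 CPM with miR-25 mimic and 11.2 CPM in the combined library. Sox2, a progenitor and glial factor, stood at 143, 125, 143 and 92.2 CPM. Both were near the control in the single-RNA libraries. Pax6 and Six3 had log2 ratios of 0.07, and Sox9 one of -0.24, with -0.38 and 0.47 within the clusters. The neural repressors Rest and Ptbp1 had -0.18 and -0.24.

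Neural adhesion genes gave the lowest median among lists with at least 10 measured genes. Of 17 measured, 8 were at least 1.5-fold lower and 2 higher (median -0.54, and -0.40 and -0.76 within the clusters). Adam23, a synaptic membrane protein without protease activity, stood at 141 CPM in the control, 114 CPM with let-7 antagomiR, 90.2 CPM with miR-25 mimic and 38.5 CPM in the combined library, a ratio of 0.273 (0.234 to 0.318). Chl1, a cell adhesion molecule of the L1 family, stood at 209, 212, 119 and 72.1 CPM. Cntn1, a contactin that binds such molecules, stood at 84.2, 73.1, 49.6 and 28.2 CPM. For Chl1 the let-7 antagomiR library was level with the control and the miR-25 library was lower. The 2 members above 1.5-fold were Ptn and Plppr1, a lipid-phosphatase-related membrane protein with 8.11 CPM in the control and 26.8 CPM in the combined library.

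Contractile genes leaned the other way. The actin and contractile list had 5 of 24 members past 1.5-fold higher and 0 lower, with a median of 0.16, which was 0.22 within the Lcn2-led and -0.08 within the Npvf-led cluster. Besides Acta1 these were Acta2, Tagln2, Actg2 and Myl12a. Acta2, smooth muscle α-actin, stood at 2347 CPM in the control, 2920 CPM with let-7 antagomiR, 2180 CPM with miR-25 mimic and 3929 CPM in the combined library. Acta2 is also a pericyte marker, and pericyte markers summed to 4303 and 6177 CPM in these cells. Their part in the contractile result was not tested. In pericyte-like cells themselves Acta2 was lower in the combined library, with 9751 CPM in the control and 6969 CPM.

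The collagen and basement membrane list had 3 of 17 members past 1.5-fold higher and 0 lower, and all 3 encode type IV collagen chains. Col4a2 stood at 87.4 CPM in the control, 173 CPM with let-7 antagomiR, 64.2 CPM with miR-25 mimic and 234 CPM in the combined library. Col4a3 stood at 59.4, 101, 68.7 and 127 CPM, and Col4a4 at 68.6, 104, 80.2 and 137 CPM. In each, let-7 antagomiR alone was above the control and miR-25 mimic nearer to it. Within the clusters Col4a2 kept log2 ratios of 1.53 and 1.02, while Col4a4 had 0.05 and 0.52. The list median was -0.07, and -0.07 and -0.12 within the clusters.

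Of the 4 measured genes of the cilium programme, 3 were at least 1.5-fold higher (median 0.82, and 0.93 and 0.66 within the clusters). Foxj1, the master factor of motile cilia, stood at 19.2 CPM in the control, 14.7 CPM with let-7 antagomiR, 51.6 CPM with miR-25 mimic and 40.1 CPM in the combined library, a ratio of 2.09 (1.65 to 2.67). Tppp3, a microtubule protein, stood at 48.1, 55.7, 159 and 101 CPM, and Nme5, a cilium-associated protein, at 6.45, 5.02, 24.8 and 14.04 CPM. All 3 stood above the control with miR-25 mimic alone, where they were higher than in the combined library.

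The glycolysis and hypoxia list (17 genes, median 0.03, and -0.04 and -0.01 within the clusters) had 3 members above 1.5-fold and 2 below it. Gapdh stood at 251 CPM in the control, 354 CPM with let-7 antagomiR, 278 CPM with miR-25 mimic and 542 CPM in the combined library, and the glucose carrier Slc2a1 at 96.8, 114, 143 and 196 CPM. Eno1, the enolase step of the same pathway, had a log2 ratio of -0.79, so the pathway did not move one way. Gapdh was also higher in each of the other 4 classes, by log2 ratios of 0.47 to 1.13. Of 17 immediate early genes 3 were lower and 0 higher (median -0.39, and -0.25 and -0.23 within the clusters). Jun stood at 408, 541, 322 and 211 CPM. The stress lists of unfolded protein and interferon genes had 0 of 16 members each past 1.5-fold in either direction, with medians of 0.24 and 0.16 that were 0.06 to 0.16 within the clusters.

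The cell cycle list (12 genes, median -0.18, but 0.155 within the Npvf-led cluster) had 3 members past 1.5-fold lower and 1 higher. Its low members were Ccnd1 and the cyclin-dependent kinase inhibitors Cdkn1c and Cdkn1b (log2 ratios of -1.07, -1.07 and -0.84), and its high one was the kinase Cdk4 (0.60). A cyclin and 2 brakes thus stood low side by side. Of 9 Notch pathway genes, 1 was lower and 0 higher, the ligand Dll1 at -0.95. Over all genes 4.94% were at least 1.5-fold lower and 3.16% higher, so 1 gene says little about that list. The Notch median of -0.26 was -0.40 within the Lcn2-led and 0.16 within the Npvf-led cluster.

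The oxidative stress list (median -0.24, but 0.12 within the Npvf-led cluster) had 4 of 19 members past 1.5-fold lower, among them Hmox1, which degrades haem, at -0.72 overall and -1.37 and -0.15 within the clusters, and 1 higher, the ferritin chain Ftl1 at 0.70. The cholesterol list had 3 of 22 lower and 0 higher, led by Insig1. For this and the following lists, the shares over all genes were 3.16% higher and 4.94% lower, and small counts are given as description only. Among 19 p53 targets 3 were higher and 1 lower (median 0.17, and 0.07 and 0.10 within the clusters), the highest being Pmaip1, a promoter of cell death, at 0.79. Proteases and their inhibitors split both ways, with 5 of 19 higher and 4 lower: Htra3 and Cst3 were among the high ones and A2m, Mme and Timp2 were the lowest. Among 10 chemokines and cytokines 3 were higher and 0 lower, namely Ccl2, Spp1 and Cx3cl1. Among 13 BMP and TGF-beta genes 2 were higher and 0 lower, one of them the ligand Tgfb3. IGF genes had 1 of 9 higher, Igf1, with 74.3 CPM in the control, 81.4 CPM with let-7 antagomiR, 60.2 CPM with miR-25 mimic and 143 CPM in the combined library.

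Membrane traffic genes had 1 of 23 members past 1.5-fold higher and 2 lower, and miRNA processing genes 1 of 13 each way. Over all genes the shares were 3.16% higher and 4.94% lower, so counts of 1 or 2 members are not read as results about a list. The small list of secreted Wnt modulators had 2 of 6 higher and 2 lower (median 0.06, and -0.22 and -0.38 within the clusters). That of thyroid and neuropeptide genes had 2 of 6 higher and 3 lower. Most members of both thus stood apart, in opposite directions. In the last, Crym was lowest and Npvf highest. Npvf, a neuropeptide precursor that leads one of the clusters, stood at 314, 720, 214 and 557 CPM over Müller-like cells, but its log2 ratio was 0.07 within the Lcn2-led and 0.35 within the Npvf-led cluster.

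**Figure D3:**
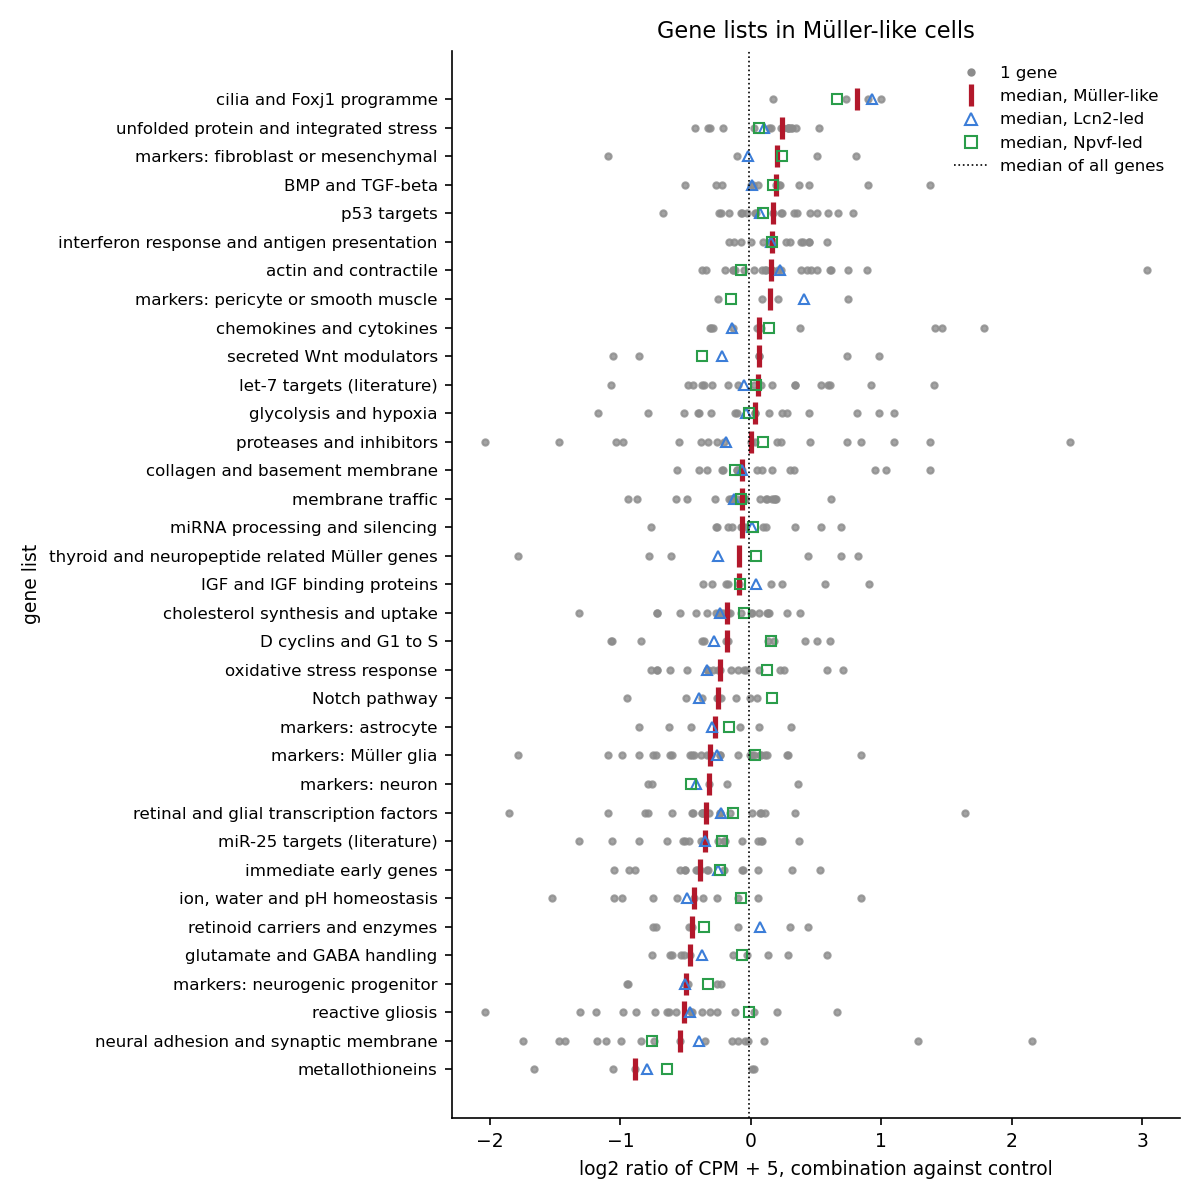
Log2 ratio of combined to control Müller-like cells for each measured gene of each list (dots), with the list's median over all Müller-like cells (bar) and within the Lcn2-led and Npvf-led clusters (open symbols). The metallothioneins stand at -0.89, neural adhesion genes at -0.54 and the cilium programme at 0.82, against -0.02 over all genes.

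A list of 18 literature targets of miR-25 had 4 members at least 1.5-fold lower and 0 higher, with a median of -0.35 over all Müller-like cells and -0.35 and -0.22 within the clusters. Dkk3, a secreted protein of the dickkopf family, stood at 1762 CPM in the control (1727 to 1798), 1728 CPM with let-7 antagomiR, 842 CPM with miR-25 mimic and 968 CPM in the combined library (943 to 995). The let-7 antagomiR library was level with the control, and both libraries with the mimic were lower, at a ratio of 0.5497 (0.532 to 0.568) for the combined one. Its window is the first printed above, with the 8-mer near the start of the UTR. Insig1, which restrains cholesterol synthesis, stood at 160, 152, 87.6 and 61.4 CPM, with the same grouping of libraries. Cdkn1c, a brake on the cell cycle, had a log2 ratio of -1.07 overall and 0.21 within the Npvf-led cluster.

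The list of 18 literature targets of let-7 had 4 members at least 1.5-fold higher and 1 lower, with a median of 0.05 that was -0.05 within the Lcn2-led and 0.04 within the Npvf-led cluster. Thbs1, Igf2bp2, Nras and Fas were the higher ones. Igf2bp2, an RNA-binding protein of fetal tissue, stood at 14.01 CPM in the control, 19.1 CPM with let-7 antagomiR, 17.9 CPM with miR-25 mimic and 30.9 CPM in the combined library, a ratio of 2.21 (1.68 to 2.93). Hmga2, an architectural chromatin protein whose long UTR carries several let-7 sites, stood at 29.5, 29.1, 14.6 and 38.5 CPM, a ratio of 1.31 (1.06 to 1.61), with log2 ratios of 0.48 and -0.20 within the clusters. The let-7 antagomiR alone left Hmga2 at the control level. Ccnd1, cyclin D1, was the lower one, with 1477, 692, 1103 and 701 CPM. Lin28b had 1 UMI in the combined library and 0 in the control.

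Across all genes, those with a miR-25 site stood lower. The median log2 ratio was -0.15 over 1138 genes with any miR-25 site, -0.28 over 243 genes with the 8-mer and 0.01 over 4954 genes with neither a miR-25 nor a let-7 site. Of the 8-mer genes, 16.9% were at least 1.5-fold lower, against 3.997% of genes with neither site. Genes with 1, 2 and at least 3 miR-25 sites had medians of -0.13, -0.19 and -0.38, over 965, 143 and 30 genes. The 8-mer median was -0.28 within the Lcn2-led and -0.24 within the Npvf-led cluster. Of 51 genes at least 2-fold lower with an annotated UTR, 17 (33.3%) held a miR-25 site, against 16.3% of the 6995 measured genes with one annotated.

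Ephb2, Mia3, Cadm2, Limch1 and Adam23, whose windows are printed above, come from the 10 lowest genes with the 8-mer and were chosen for that. Over all 243 such genes 80.7% lay below 0 on the log2 scale. Ephb2, a receptor of ephrin guidance cues, stood at 168 CPM in the control, 126 CPM with let-7 antagomiR, 109 CPM with miR-25 mimic and 76.0 CPM in the combined library. Mia3, which loads collagen into transport vesicles, stood at 71.2, 68.9, 40.1 and 34.6 CPM. Cadm2, a synaptic adhesion molecule, stood at 30.4, 31.9, 18.5 and 10.7 CPM. In Mia3 and Cadm2 the 2 libraries that received the mimic were low and the other 2 were level. Limch1, an actin-binding activator of myosin, stood at 249, 180, 203 and 126 CPM, lower in both single-RNA libraries.

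Genes with a let-7 site did not stand higher as a whole. Their median was -0.01 over 1212 genes with any site and 0.01 over 241 genes with the 8-mer. Over the 903 genes with a let-7 site and no miR-25 site it was 0.03, with 5.43% at least 1.5-fold higher and 2.88% lower. The 309 genes with both kinds of site had a median of -0.13, near that of miR-25 site genes. Of 49 genes at least 2-fold higher with an annotated UTR, 10 (20.4%) held a let-7 site, against 17.3% of the measured genes.

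UTR length moved with these values, a split made after the values were seen. Measured genes were put in 3 groups of equal size by UTR length, up to 788 bases, up to 2072 bases and longer. Genes with neither site had medians of 0.09, -0.03 and -0.08 from the shortest to the longest group. Genes with only let-7 sites had 0.29, 0.06 and -0.04, and genes with only miR-25 sites -0.08, -0.12 and -0.18. Each let-7 median lay above, and each miR-25 median below, that of the genes with neither site in its length group.

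The 91 genes with short UTRs and only let-7 sites were described further. Of them 15.4% were at least 1.5-fold higher, against 3.79% of genes with neither site, and 15.4% had a ratio below 0 on the log2 scale, against 39.1%. Their median was 0.33 within the Lcn2-led cluster, where genes with neither site had 0.09, and 0.27 within the Npvf-led cluster, against 0.06. With let-7 antagomiR alone it was 0.19, against 0.04, and with miR-25 mimic alone 0.11, against 0.09. These UTRs had a median GC content of 50.5%, against 45.8% for short UTRs with neither site. Below the median GC content of all short UTRs the medians were 0.25 (27 genes) and 0.13, and above it 0.30 (64 genes) and 0.07.

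Acta1, Thrsp, Gpx7 and Col9a3 headed these short-UTR genes. Thrsp, a regulator of lipid synthesis, stood at 83.7 CPM in the control, 192 CPM with let-7 antagomiR, 221 CPM with miR-25 mimic and 228 CPM in the combined library, so each of the 3 treated libraries stood above the control. Gpx7, a peroxidase of the endoplasmic reticulum, stood at 24.2 CPM in the control and 69.1 CPM in the combined library. Col9a3, a type IX collagen chain, stood at 26.2 and 71.6 CPM. Tarbp2, a partner of the miRNA-processing enzyme Dicer1, belongs to the same group, with 14.6, 21.2, 13.5 and 26.6 CPM in library order. Dicer1 itself stood at 22.5, 41.1, 28.4 and 34.8 CPM.

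**Figure D4:**
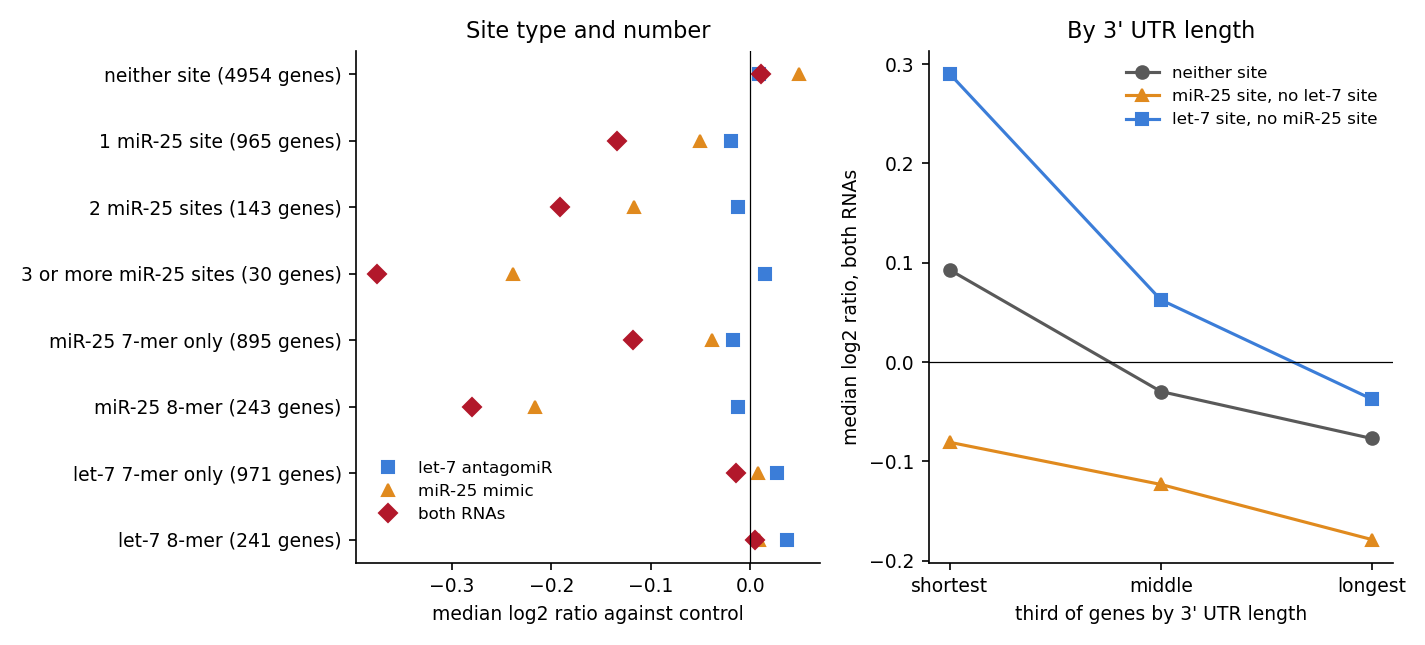
Left, median log2 ratio to control in Müller-like cells for genes grouped by site type and number, 1 symbol for each treated library, and right, medians of the combined library by UTR length group. The combined library stands at -0.38 for genes with 3 or more miR-25 sites, and the short-UTR let-7 genes have a median of 0.29 against 0.09 for genes with neither site.

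Either RNA alone gave site medians that can be set beside these, with the same control library in each comparison. With miR-25 mimic alone, any-site genes had -0.07, 8-mer genes -0.22 and genes with neither site 0.05. With let-7 antagomiR alone, let-7 site genes had 0.03, 8-mer genes 0.04 and genes with neither site 0.01, while miR-25 site genes had -0.02. In other classes the miR-25 8-mer medians were -0.10 in mesenchymal-like, 0.04 in pericyte-like, -0.20 in astrocyte-like and -0.29 in microglia-like cells. Genes with neither site had 0.02, 0.09, 0.05 and 0.02 in those classes. The 8-mer median was thus below that of genes with neither site in each class.

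Higher genes of Müller-like cells were mostly not 2-fold higher in other classes, whereas many of the lower genes were 2-fold lower there too. Of the 50 higher genes, 13 were measured at 50 CPM or more in mesenchymal-like cells and 0 of these were 2-fold higher. In pericyte-like cells 3 of 15 were, in astrocyte-like cells 5 of 20 and in microglia-like cells 2 of 10, where another 2 were 2-fold lower. The background of genes at least 2-fold higher was 0.568% of 3171 genes in mesenchymal-like, 0.583% of 3433 in pericyte-like, 0.896% of 3238 in astrocyte-like and 3.32% of 2768 in microglia-like cells. Of the 53 lower genes, 5 of 14, 8 of 15, 12 of 22 and 4 of 8 were 2-fold lower in these classes, against backgrounds of 0.599%, 1.28%, 1.61% and 5.24%. A2m stood at 97.2 and 18.4 CPM in pericyte-like and at 172 and 29.6 CPM in astrocyte-like cells, control first.

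**Figure D5:**
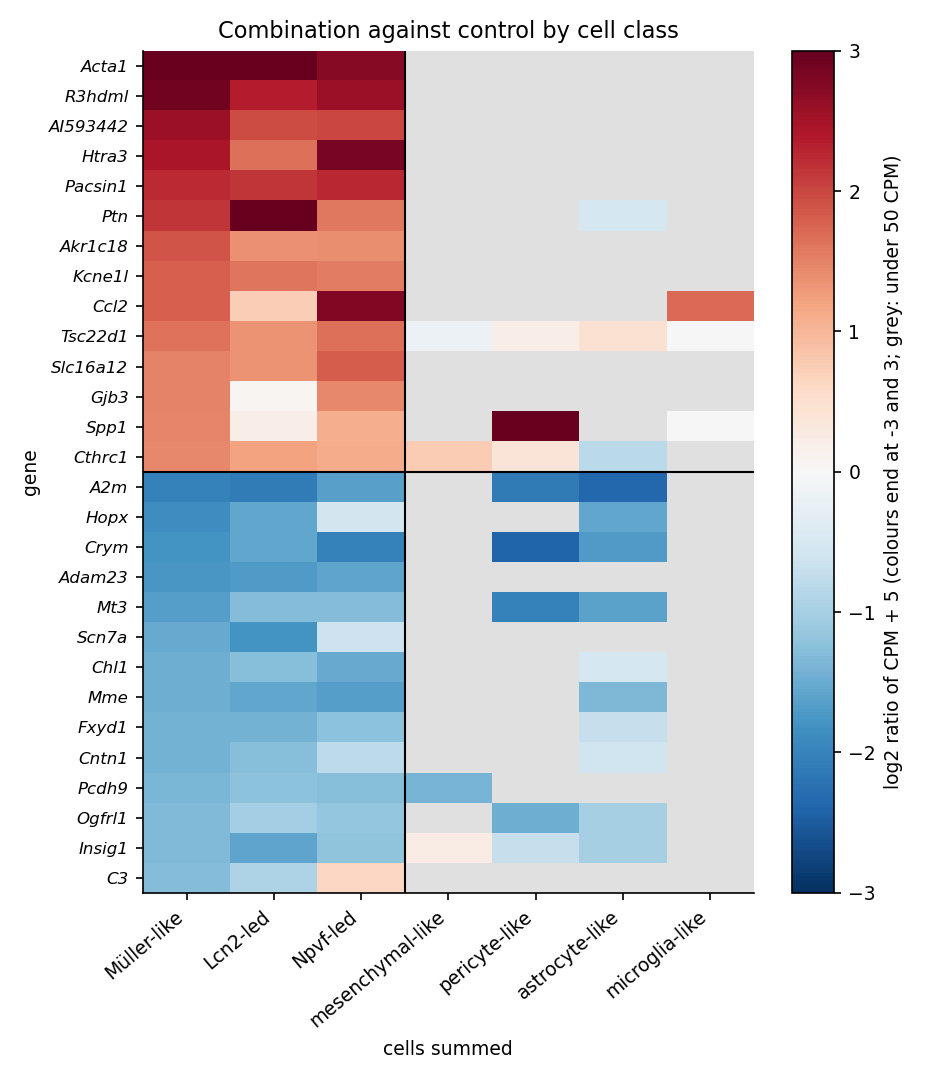
Log2 ratio of combined to control library (colour scale ending at -3 and 3) for the 14 highest and 14 lowest genes named by the rule, in Müller-like cells, their 2 main clusters and 4 other classes, with genes under 50 CPM in grey. Acta1 stands at 3.03 in Müller-like cells, and A2m at -2.04 in Müller-like, -2.13 in pericyte-like and -2.36 in astrocyte-like cells.

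In mesenchymal-like cells the highest ratios belonged to Chodl, a membrane lectin, with 11.8 CPM in the control and 108 CPM in the combined library, and Fxyd6, an ion pump regulator, with 4.96 and 60.9 CPM. Penk, the enkephalin precursor, had 21.8 and 119 CPM, and Eln, elastin, 248 and 818 CPM. At the finer clustering (resolution 1.0) the leading genes of 1 mesenchymal-like cluster include Tfap2b, Eln and Penk. It held 51 of 2169 control and 63 of 763 combined mesenchymal-like cells, so it was a larger share of the combined class. Its part in these ratios was not tested. Among the lowest were Igf2, a fetal growth factor (64.9 and 16.8 CPM) and Kitl, the ligand of the receptor Kit (201 and 64.9 CPM).

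In pericyte-like cells Spp1 stood at 13.02 CPM in the control and 275 CPM in the combined library, and Crct1 at 20.5 and 170 CPM. The lowest was H19, an imprinted non-coding RNA (139 and 11.03 CPM). Lcn2 (84.2 and 7.36 CPM) and Crym (124.2 and 19.6 CPM) followed, both genes of Müller-like cells. Müller glia markers summed to 4366 CPM in control and 3522 CPM in combined pericyte-like cells, and their part in these low ratios was not tested.

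In astrocyte-like cells the chemokine Ccl17 stood at 5.84 CPM in the control and 74.6 CPM in the combined library, and Ptgds, prostaglandin D synthase, at 62.7 and 246 CPM. Collagen genes were lowest, Col1a1 at 99.9 and 4.74 CPM. Mesenchymal markers in this class summed to 861 CPM in the control and 502 CPM in the combined library, and their part was not tested. Microglia-like cells rested on 123 and 70 cells. Their highest genes were Cd69, an activation marker of leukocytes (11.7 and 114 CPM), and Cxcl2, a neutrophil chemokine (50.5 and 342 CPM). Their lowest were Meg3 and collagen genes such as Col3a1 (104 and 6.91 CPM), with mesenchymal markers summing to 322 and 44.9 CPM there. That sum's part in the low collagen values was not tested either.

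A few genes stood apart in the same direction in every class. Rps2 and Rpl10-ps3 were at least 1.5-fold higher in all 5 classes, and Rpl35, S100a6, Ndufa5, Polr2l, Tmem256, Gm42418 and mt-Nd4l at least 1.5-fold lower. The shares of all genes past 1.5-fold, higher and lower, were 3.16% and 4.94% in Müller-like, 2.27% and 3.06% in mesenchymal-like and 4.92% and 4.81% in pericyte-like cells. They were 5.47% and 7.44% in astrocyte-like and 12.6% and 15.5% in microglia-like cells. In Müller-like cells Rps2 stood at 653 CPM in the control and 1267 CPM in the combined library, and mt-Nd4l at 1078 and 329 CPM. S100a6, a calcium-binding protein, stood at 4339 and 2592 CPM. Because these genes stood apart the same way in all 5 classes, they are not read as Müller glia results. Rpl10-ps3 is a pseudogene whose reads may be shared with its parent gene.

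The neuron- or progenitor-like class held 105146 UMIs in 30 control and 308341 UMIs in 91 combined cells. Most of its control cells depended on the resolution: the class held 1 control and 50 combined cells at resolution 0.3, and 5 and 76 at resolution 1.0. This is a description, since these genes also shaped the cluster. Neuron markers summed to 685 CPM in the control, with 8 of 16 genes at 0, and 2050 CPM in the combined library, with 2 at 0. The control sum lay below that of control Müller-like cells, 1044 CPM. Neurogenic progenitor markers summed to 1408 and 934 CPM. Müller glia markers summed to 17030 and 10310 CPM.

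Neurod4, a proneural factor of bipolar and amacrine cells, gave 5 UMIs in the control, 50 UMIs with let-7 antagomiR, 75 UMIs with miR-25 mimic and 82 UMIs in the combined library, or 47.6, 81.6, 110 and 266 CPM. Otx2, a factor of photoreceptors and bipolar cells, gave 0, 16, 16 and 29 UMIs, and its target Crx 0, 11, 9 and 14. Low levels were not detectable in the control at this depth, where 0 Otx2 UMIs allow up to 35.1 CPM. Elavl3, an RNA-binding protein of young neurons, gave 0, 33, 69 and 34 UMIs, and Snap25, a synaptic protein, 2, 9, 20 and 29.

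Single genes of the neurogenic progenitor list stood in both directions. Hes6, an antagonist of Hes1, stood at 704 CPM in the control, 557 CPM with let-7 antagomiR, 638 CPM with miR-25 mimic and 272 CPM in the combined library, and the Notch ligand Dll1 85.6, 68.6, 113 and 32.4 CPM, with overlapping intervals between control and combined cells for Dll1. Insm1, a neuroendocrine zinc finger factor, was level, at 66.6 CPM in the control and 64.9 CPM in the combined library. Sox11, a factor of immature neurons, had 1 UMI in the control and 19 in the combined library, or 9.51 and 61.6 CPM. By cells, 60.0% of the control class (18 of 30, 40.6% to 77.3%) and 27.5% of the combined class (25 of 91, 18.6% to 37.8%) had a Hes6 UMI. Hes6 is no clean class marker, since 11.9% of control and 10.1% of combined mesenchymal-like cells had one too. For Neurod4 the shares were 6.67% (0.818% to 22.1%) and 39.6% (29.5% to 50.4%). The rod genes Nrl, Gnat1, Rcvrn, Pde6g and Prph2 had no UMI in either class, and neither did Atoh7 and Olig2.

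Counted over all kept cells, without classes, Neurod4, Neurod1, Pcp4 and Lhx4 were seen in a larger share of the combined library. Pcp4, Neurod4 and Lhx4 are among the leading genes of the neuron- or progenitor-like cluster at resolution 0.3. Their shares therefore restate that class and give it no separate support. Hes6, Dll1 and Insm1 are not given in this count. Neurod4 was seen in 0.0443% of control cells (0.00536% to 0.160%) and 1.54% of combined cells (1.11% to 2.08%), and Neurod1 in 0% (0 of 4516, up to 0.0816%) and 1.10%. Thinned to 2000 UMIs a cell, the Neurod4 shares were 0.0237% and 0.754%. Pcp4, a calmodulin regulator of retinal neurons, was seen in 0.0886% and 4.70% of cells, and Lhx4, a factor of bipolar cells, in 0.0221% and 1.07%. As a background, mesenchymal-like cells, which should lack them, gave 0% and 0.274% for Neurod4 and 0.0474% and 1.37% for Pcp4.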

How the data were processed

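UMI counts per gene and cell were used as deposited by the authors, in 6 matrices of the 10x Genomics 3′ V2 chemistry, per the labels' protocols. The submitters' processing notes list Cell Ranger 2, Seurat 2 and mm10. Cell filters before deposit were not given in the sources used here. No column belonged to an unassigned sample (0 such columns). The combined matrix ends within an entry list, and only cells with all their entries were used.

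Cells were filtered on genes and mitochondrial UMIs as stated, and Scrublet calls were removed (scanpy 1.11.5, Python 3.11.15, numpy 2.4.6, scipy 1.17.1). All kept cells were log-normalised and clustered together without integration (2000 variable genes, 30 principal components, 15 neighbours, Leiden resolution 0.6, igraph 0.11.9). Clusters were named "-like" from fixed marker lists, and 3 stayed unnamed. In the control, 5.62% of cells lay in unnamed clusters, and in the combined library 2.46%. UMIs were summed per library and class and expressed as CPM. Log2 ratios used a pseudocount of 5 CPM, which understates changes of low genes. In other classes genes with at least 50 CPM in 1 of the 2 libraries counted as measured. The scripts were tested on simulated counts.

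The genes named are the 15 highest and 15 lowest ratios in Müller-like cells, the 3 highest and 3 lowest of each list, 10 genes with an 8-mer site for each miRNA, 5 at each end in every other class, and a set named whatever its values. The ranking left out genes that are mitochondrial, Y-linked or Xist, ribosomal protein and haemoglobin genes, and unnamed ones (Gm, Rik). Genes of short UTRs, of all 5 classes and other genes given by level were added after values were seen. The members and lists were chosen with earlier results of these data known. Some genes that this rule names, and results that need them, are not reported here.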

Additional observations from a re-analysis of the deposited data

Results flagged for a closer look

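For 2 flagged genes the ratio of combined to control library ran in opposite directions in different cell classes, and the difference was not tested. They are not the only such genes. Ptn and Acta2, given above, differed in direction between classes, and H19 had a log2 ratio of -3.17 in pericyte-like and 0.58 in Müller-like cells. Lcn2 had a log2 ratio of -2.85 in pericyte-like cells (84.2 CPM in the control, 7.36 CPM in the combined library) and 1.14 in astrocyte-like cells (97.0 and 220 CPM). Col4a2 had 1.37 in Müller-like cells (87.4 and 234 CPM) and -2.23 in microglia-like cells (67.3 and 10.4 CPM).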

How the results depend on the processing

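No paired analysis was possible because each treatment has 1 library. Alternatives within the Lcn2-led and Npvf-led clusters, and with both weighted equally, were chosen after seeing the data. The counts of 50 higher and 53 lower genes became 83 and 80 over all kept cells, where class shares enter, and the lower count became 110 with a pseudocount of 1 CPM. Other settings kept both counts within 1.5 times. The median log2 ratio of genes with a miR-25 site, -0.15, was -0.080 with no level filter, -0.068 over all kept cells, -0.11 in the Npvf-led cluster and -0.28 over 8-mers, below 0 throughout. The median log2 ratio of genes with a let-7 site, -0.01, lay near 0: it was -0.039 at 50 CPM or more, and its sign turned with median-of-ratios scaling (0.00632), over all kept cells (0.023), in the Npvf-led cluster (0.016) and over 8-mers (0.0052). The neuron- or progenitor-like share of 3.34% was 1.84% at clustering resolution 0.3. Of 396 list medians over the settings (that of all genes included), 47 changed sign at whatever size, 16 of them over all kept cells, 11 in the Npvf-led and 8 in the Lcn2-led cluster. Among lists whose median was at least 0.3 from 0, over all kept cells and with the level filter applied anew there, those of Müller glia markers (0.38), neuron markers (0.365), neurogenic progenitor markers (0.0041), glutamate and GABA genes (0.21), ion, water and pH genes (0.040) and retinal and glial transcription factors (0.19) turned. Such lists also turned within clusters, Müller glia markers in the Npvf-led (0.028) and retinoid genes in the Lcn2-led one (0.069). Among the smaller medians that turned in the Npvf-led cluster were those of Notch (0.16), cell cycle (0.155), oxidative stress (0.12) and contractile genes (-0.08). Those of secreted Wnt modulators (-0.38) and pericyte markers (-0.15) turned there too. Of 2464 values of named genes 113 changed sign, 51 over all kept cells, 27 in the Npvf-led and 19 in the Lcn2-led cluster, among them Lcn2, Sox9 and Hmga2 in the Npvf-led one. Of the genes at least 2-fold apart, 6 turned: C3 (0.61), Steap4 (0.38) and Cdkn1c (0.21) in the Npvf-led cluster, and Col4a2 (-0.052), Cthrc1 (-0.10) and Spp1 (-0.11) over all kept cells. The cause was not tested, except that all kept cells hold 29.5% and 50.5% Müller-like cells. Depth limits the classes of few cells, and the microglia-like and neuron- or progenitor-like levels rest on the fewest UMIs.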
